A study of Mus musculus with 4 samples.

Results

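The cartilage collagens II, IX, XI and XXVII were followed through tag counts from hindlimbs and forelimbs of mouse embryos. The members were the 7 genes Col2a1, Col9a1, Col9a2, Col9a3, Col11a1, Col11a2 and Col27a1, chosen by name and read from every tag to which the deposited table gave the Ensembl identifier of the gene. They made up 7 of the 23162 genes and clusters with a count, and 116 of the 134117 counted tags with a gene or cluster. Hindlimb and forelimb samples came from CD1 embryos at stage E14.5, and each limb type had 2 biological replicates, which made 4 libraries. The labels name no mutation, transgene or treatment in either limb type, and do not say whether a sample pooled embryos or whether equal replicate numbers stand for the same animals. Each sample was a whole dissected limb, so cartilage was measured together with muscle, skin, blood and vessels, and fewer cartilage cells cannot be told apart from less collagen RNA per cell.

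Collagens are trimers of α chains wound into a triple helix. Collagen II, a homotrimer of the Col2a1 chain, forms the main fibril of cartilage. Collagen XI joins the Col11a1 and Col11a2 chains with a further chain made from Col2a1 and lies within these fibrils, where it takes part in their nucleation and limits their width. Collagen IX is a heterotrimer of the Col9a1, Col9a2 and Col9a3 chains that sits on the fibril surface, and collagen XXVII, made from Col27a1, is a minor fibrillar collagen of cartilage. In the limb bud these genes are switched on as mesenchyme condenses into cartilage, under the transcription factors Sox9, Sox5 and Sox6.

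The libraries were made by digital gene expression from NlaIII tags, in which cDNA is cut at CATG and the next 17 bases are sequenced as a tag. A transcript cut to completion gives a tag at its last CATG before the poly(A) tail, and further tags arise at upstream sites. Counts are therefore per transcript and were not divided by transcript length. Levels are in CPM, the usual per-library scaling of counts to a common total, here over tags with a gene or cluster and after TMM scaling. The tags below were among the most counted of their genes and are shown because they differ widely in base composition. They are numbered by abundance within the gene, written 5′ to 3′ without the CATG, with G and C in capitals.
Col2a1 tag 1: GaCattGGaGGGGCtGa
Col9a1 tag 1: ttaattGaaCtGGttta
Col9a2 tag 1: CCtttCaGCaCtGGGCC
Col9a2 tag 2: taCtCCaGaCCCaGGaG
Col9a2 tag 3: aGCaaCCaGCCaGGaCa
Col9a3 tag 1: aGataaaaaCaCtCaaG
Col9a3 tag 2: GCCtGCtGCttGGCCCC
Col9a3 tag 3: aGaCtGGaaataGGGGG
Col11a1 tag 3: Cattttaataattaatt
Col11a2 tag 1: tCaCCtCtCGtGaGGat
Col27a1 tag 1: CCaCCtaaaCaaGtCaG
Positions are from GENCODE M21 on GRCm38. Col2a1 tag 1 lies in the coding part of exon 54 at chr15:97976083-97976099 on the minus strand. The others lie on the plus strand in 3′ UTRs. Col9a1 tag 1 is at chr1:24252630-24252646, and Col9a2 tags 1, 2 and 3 are at chr4:121055060-121055076, chr4:121054851-121054867 and chr4:121054795-121054811. Col9a3 tags 1, 2 and 3 are at chr2:180621715-180621731, chr2:180621552-180621568 and chr2:180622133-180622149. Col11a1 tag 3 is at chr3:114219524-114219540, Col11a2 tag 1 at chr17:34065873-34065889 and Col27a1 tag 1 at chr4:63334591-63334607. Tag 1 of Col2a1, Col9a1, Col9a2 and Col27a1 and tag 3 of Col9a3 sit at the last CATG of an annotated transcript. No counted tag of the 7 genes matched the sense strand of another M21 gene. Some assigned counts matched no sense transcript of their own gene either: 16.4% in Col11a1, 6.40% in Col9a1 and at most 1.98% in the others. They included Col11a1 tag 4, with 15.7% of the gene's counts. Col9a1 tag 5, with 5.80%, matched the antisense strand alone. All were kept in the gene levels and chain ratios.

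The libraries held 5325279 and 5015295 tags in hindlimb and 4695786 and 1829647 in forelimb. A gene or cluster was given for 81.3% and 84.6% of the tags in hindlimb and for 84.3% and 85.2% in forelimb. A single count was worth 0.222 and 0.252 CPM in hindlimb, against 0.255 and 0.618 CPM in forelimb. The limb labels matched their defining genes, with Pitx1 at 253 and 303 CPM in hindlimb against 3.31 and 1.24 CPM in forelimb, and Tbx5 at 0.889 and 1.51 CPM in hindlimb against 18.3 and 14.8 CPM in forelimb. Cartilage was present in every library. All 9 cartilage markers (Sox9, Sox5, Sox6, Acan, Hapln1, Matn1, Matn3, Comp and Cnmd) passed the count filter, and their summed level was 1219 and 1249 CPM in hindlimb and 1322 and 1491 CPM in forelimb. Base composition of the counted tags differed between the limb types. Tags with 0 to 7 G or C bases took 43.3% and 31.4% of the counts in hindlimb, against 59.6% and 60.9% in forelimb. Tags with 11 to 17 took 14.6% and 20.6% in hindlimb, against 5.40% and 5.22% in forelimb.

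The comparison addressed which genes differ between hindlimb and forelimb. With edgeR's quasi-likelihood test and Benjamini-Hochberg adjustment over all 13718 genes tested, 4 of the 7 cartilage collagens were called higher in hindlimb at a threshold of 0.05, and none was called lower. They were Col2a1, Col9a2, Col11a2 and Col27a1. Over all tested genes, 9.58% were called higher and 7.08% lower. At an unadjusted p under 0.05 the count lower was also 0 in edgeR, and DESeq2 called 4 higher and 0 lower, with 2 lower at an unadjusted p under 0.05. The limb types did not overlap in 6 of the 7 genes, against 62.8% of all tested genes. In collagens IX and XI, Col9a2 and Col11a2 were higher, while their partner chains Col9a1, Col9a3 and Col11a1 had fitted values below 0 and did not pass the test. With an offset for the bases of each tag, a fit described after the tags, 0 of the 7 genes were called. Each p-value sets a difference against the spread between these samples only, which edgeR and DESeq2 estimate partly across genes.

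**Figure D1:**
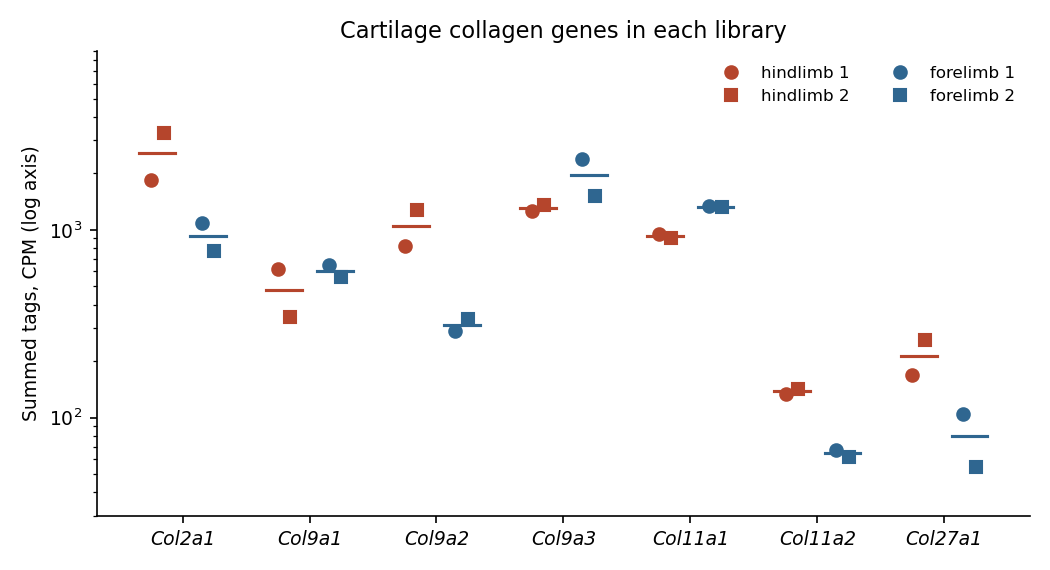
Levels of the 7 cartilage collagens in CPM on a log axis, by gene along the x axis; points are single libraries, hindlimb left of forelimb, and bars mark the mean of 2 libraries. Col2a1, Col9a2, Col11a2 and Col27a1 lie higher in both hindlimb libraries than in both forelimb libraries, Col9a3 and Col11a1 lie lower, and Col9a1 overlaps.

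Col2a1 encodes the chain of collagen II and was the most abundant member in hindlimb. It had 1853 and 3274 CPM in hindlimb, against 1092 and 772 CPM in forelimb. Both hindlimb libraries were above both forelimb libraries, and the hindlimb replicates lay further apart than the forelimb replicates. The mean was 2564 ± 1004 CPM in hindlimb and 932 ± 226 CPM in forelimb (SD, n = 2 each). The log2 fold change was 1.46 ± 0.35 (SE), with an adjusted p of 0.0103 from edgeR's quasi-likelihood test with Benjamini-Hochberg adjustment. Leaving out forelimb replicate 2 (log2 fold change 1.22) or hindlimb replicate 2 (1.004) ended the call. Of its counts, 76.7% came from tag 1, which had 1346 and 2698 CPM in hindlimb and 791 and 450.5 CPM in forelimb.

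In collagen IX, the surface collagen of the fibril, Col9a2 was higher in hindlimb and its partner chains were not called. Col9a2 had 820.1 and 1283 CPM in hindlimb, against 291 and 334 CPM in forelimb. The limb types were well separated, with a mean of 1052 ± 328 CPM in hindlimb and 312 ± 30.9 CPM in forelimb (SD, n = 2 each). Its log2 fold change of 1.75 ± 0.33 (SE; edgeR, Benjamini-Hochberg adjusted p = 0.00294) was the largest of the 7 genes. The call remained when any of the 4 libraries was left out, at 1.41 to 2.03. Col9a3 had 1259.9 and 1350.5 CPM in hindlimb and 2397 and 1515 CPM in forelimb. Both hindlimb libraries lay below both forelimb libraries, but the fitted value of -0.58 ± 0.33 did not pass the test (edgeR, Benjamini-Hochberg adjusted p = 0.226). Col9a1 had 615 and 341 CPM in hindlimb and 648 and 562 CPM in forelimb. These ranges overlapped, and the fitted value was -0.34 ± 0.33 (edgeR, Benjamini-Hochberg adjusted p = 0.520). Without hindlimb replicate 2 the Col9a1 value was 0.04.

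In collagen XI, Col11a1 was the abundant chain and Col11a2 the scarce one in the assigned tags. Col11a1 had 946 and 901 CPM in hindlimb, against 1338 and 1322 CPM in forelimb. The replicates of each limb type lay close together, with means of 923 ± 32.1 CPM in hindlimb and 1329.6 ± 11.2 CPM in forelimb (SD, n = 2 each), and the limb types did not overlap. The fitted value of -0.53 ± 0.31 (SE) did not pass the test (edgeR, Benjamini-Hochberg adjusted p = 0.246). Col11a2 had 134 and 142 CPM in hindlimb, against 67.0 and 61.8 CPM in forelimb. It was higher in hindlimb by a log2 fold change of 1.10 ± 0.32 (edgeR, Benjamini-Hochberg adjusted p = 0.0261), with means of 138 ± 6.06 CPM in hindlimb and 64.4 ± 3.67 CPM in forelimb (SD, n = 2 each). Leaving out forelimb replicate 1 (1.16) or forelimb replicate 2 (1.03) ended this call.

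The Col11a2 level rested on a minority of its counts. The table gave no gene to the tags at the last CATG and the next-to-last CATG of the M21 transcript, both in the 3′ UTR part of exon 64. They are shown because their levels lay in opposite directions within the same exon.
Col11a2 last site: tGtCCCtGGGaGGaatG
Col11a2 next-to-last site: GtCtCCCCtGCttCaGG
The last-site tag lies at chr17:34066407-34066423 and had 86.0 and 77.6 CPM in hindlimb, against 269 and 276 CPM in forelimb. The next-to-last tag lies at chr17:34066347-34066363 and had 245 and 359 CPM in hindlimb, against 75.1 and 125 CPM in forelimb. The log2 ratio of the means, hindlimb over forelimb, was -1.74 at the last site and 1.60 at the next-to-last site, and neither ratio was tested. The 14 assigned Col11a2 tags held 1528 counts, while all sense tags that matched this gene alone in M21 held 6746. When every gene was read from all such tags, in a fit added after seeing the data, Col11a2 had 614 and 778 CPM in hindlimb and 539 and 601 CPM in forelimb. The value was then 0.29 ± 0.30 and was not called by edgeR. In that fit 16.7% of 12548 genes were called, and Col2a1, Col9a2 and Col27a1 remained called, at 1.52, 1.62 and 1.45. The CPM of this fit are scaled to the total of a different set of tags and are not on the scale of the other levels.

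Col27a1, the chain of collagen XXVII, had 169 and 258 CPM in hindlimb, against 105 and 54.4 CPM in forelimb. Both hindlimb libraries were above both forelimb libraries, with means of 213 ± 63.6 CPM in hindlimb and 79.5 ± 35.6 CPM in forelimb (SD, n = 2 each). The log2 fold change was 1.41 ± 0.36 (SE; edgeR, Benjamini-Hochberg adjusted p = 0.0147). Without forelimb replicate 2, the shallowest library with 88 Col27a1 counts, the value was 1.02 and the call was lost. The last-site tag held 62.4% and 73.0% of the gene's counts in hindlimb, against 36.3% and 28.4% in forelimb.

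By level, the order in hindlimb was Col2a1, Col9a3, Col9a2, Col11a1, Col9a1, Col27a1 and Col11a2. In forelimb it was Col9a3, Col11a1, Col2a1, Col9a1, Col9a2, Col27a1 and Col11a2. Neighbours overlapped between their replicates in hindlimb for Col9a3 with Col9a2 and for Col9a2 with Col11a1, and in forelimb for Col27a1 with Col11a2. The other neighbours in each order did not overlap. In both limb types Col27a1 and Col11a2 were the scarce members, and these orders hold for assigned tags alone. By mean level over the limb types Col2a1 ranked 63 among the 13718 tested genes, Col9a3 68, Col11a1 102, Col9a2 184, Col9a1 238, Col27a1 1221 and Col11a2 1914.

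Single tags of the collagens differed in direction by their base composition. Of 52 member tags tested by edgeR, 6 were called higher and 1 lower in hindlimb, where 4.69% and 1.66% of all 37805 tested tags were called higher and lower. The 6 higher tags belonged to Col9a2, Col9a3 and Col27a1, and the lower one was Col9a3 tag 1. The counts depended on single libraries and changed with each library left out. In those fits the log2 fold change of Col9a3 tag 1 ran from -2.07 to -1.32. That of Col9a3 tag 2 ran from 2.74 to 3.53. Among the 14 tested member tags with 11 to 17 G or C bases, 11 had a log2 fold change above 0, and the median was 2.05. Among the 17 with 0 to 7 such bases, 14 lay below 0, and the median was -0.37. The 21 tags with 8 to 10 such bases had a median of 0.04. Over all tested tags the class medians were 1.92, -0.79 and 0.31 in the same order. Pearson's r between the log2 fold change and the number of G or C bases was 0.644 over the 52 tags, which share libraries and genes, and is given as a description. Their values ran from -3.09 to 3.58.

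**Figure D2:**
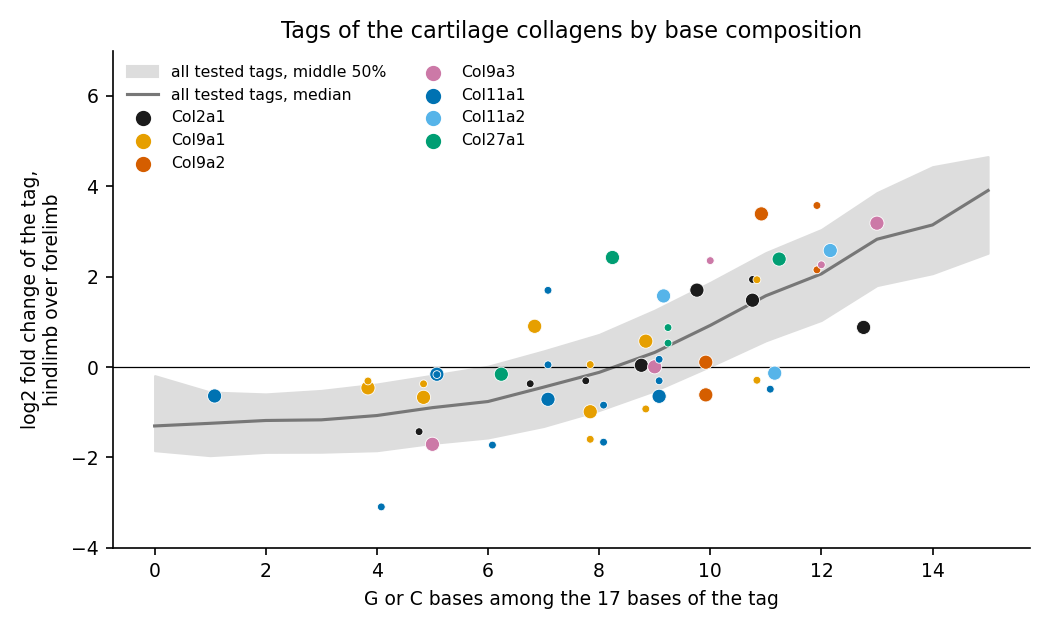
Log2 fold change of each tested tag of the 7 cartilage collagens, hindlimb over forelimb (y axis), against the number of G or C bases among its 17 bases (x axis); large points are tags with at least 5% of their gene's counts, and the line and grey band are the median and middle 50% of all tested tags. The median of all tags is -1.30 at 0 and 3.91 at 15 G or C bases, the range over which the line is drawn, and the collagen tags spread around it.

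Col9a3 held the clearest contrast within a gene. Its tag 1, with 5 G or C bases, had 654 and 417 CPM in hindlimb, against 2162 and 1338 CPM in forelimb, and its log2 fold change was -1.71 (edgeR, Benjamini-Hochberg adjusted p = 0.0467 over all tags). Its tag 2, with 13, had 388 and 671 CPM in hindlimb, against 58.3 and 58.1 CPM in forelimb, and its log2 fold change was 3.18 (edgeR, Benjamini-Hochberg adjusted p = 0.0162). Tag 3, at the last CATG and with 9, had 104 and 144 CPM in hindlimb and 156 and 90.8 CPM in forelimb, so that the limb types overlapped. The call of tag 1 was lost without forelimb replicate 1 (-1.32), and that of tag 2 remained without each of the 4 libraries. The 3 sites lie in the same exon, exon 33. Tag 1 took 51.9% and 30.9% of the gene's counts in hindlimb, against 90.2% and 88.3% in forelimb.

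In Col9a2 the higher level in hindlimb rested mostly on the tag at the last CATG. Tag 1, with 11 G or C bases, had 550.5 and 1076 CPM in hindlimb, against 89.1 and 65.5 CPM in forelimb, and its log2 fold change was 3.39 (edgeR, Benjamini-Hochberg adjusted p = 0.0162). The call remained without each of the 4 libraries. The tag held 67.1% and 83.9% of the gene's counts in hindlimb, against 30.7% and 19.6% in forelimb. Tags 2 and 3, with 10 each, had log2 fold changes of 0.11 and -0.62 and were not called. Col27a1 tag 1, with 8 G or C bases, had 105 and 189 CPM in hindlimb, against 37.9 and 15.4 CPM in forelimb. It was called higher (log2 fold change 2.42; edgeR, Benjamini-Hochberg adjusted p = 0.0369), but lost the call without forelimb replicate 2 (1.95). It lay 2.54 above the median of all tags with the same number of G and C bases. With the offset for the bases of each tag, described below, its value was 0.85 and was not called. Against the medians of their own numbers, Col9a2 tags 1, 2 and 3 lay at 1.81, -0.81 and -1.54. Col2a1 tags 1 to 4, with 10, 11, 13 and 9, had values of 1.70, 1.48, 0.88 and 0.04, none of them called. Col11a1 tag 3, which holds a single G or C, had 185 and 161 CPM in hindlimb and 269.7 and 269 CPM in forelimb, a log2 value of -0.64 that was not called.

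**Figure D3:**
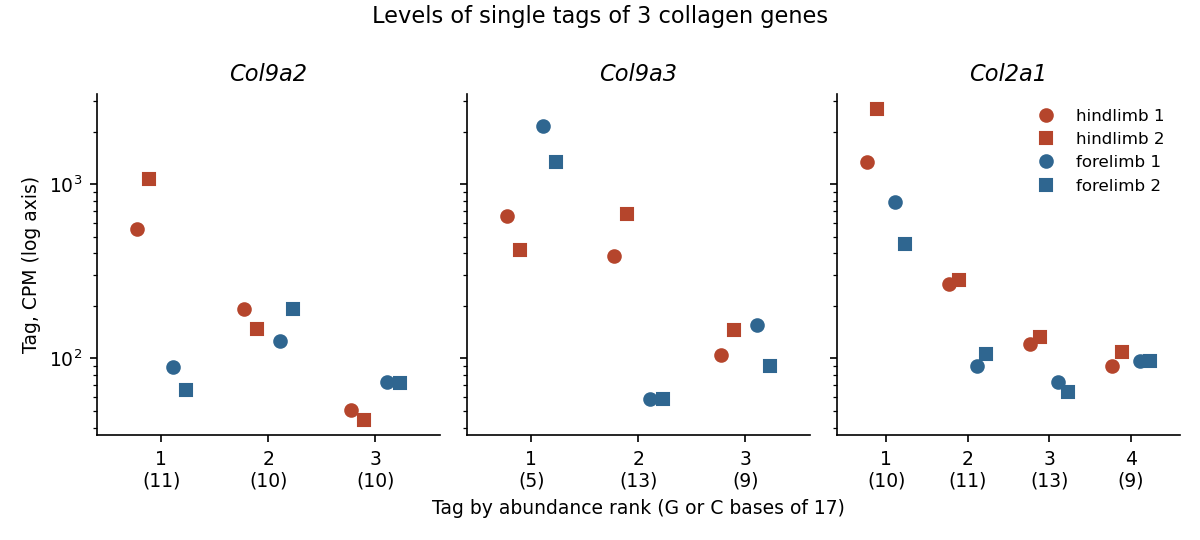
CPM on a log axis of the leading tags of Col9a2, Col9a3 and Col2a1 in the 4 libraries, by abundance rank along the x axis with the number of G or C bases in brackets; points are single libraries, hindlimb left of forelimb. Col9a3 tag 1 (5 G or C bases) is lower and tag 2 (13) higher in hindlimb, and Col9a2 tag 1 (11) is higher while tag 2 overlaps.

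Tag usage, the ratio of the tags within a gene, was tested with diffSpliceDGE in edgeR, which called 10.6% of 8694 genes. It was called to differ between the limb types for Col9a3 (edgeR, Benjamini-Hochberg adjusted p = 8.6e-05) and Col9a2 (edgeR, Benjamini-Hochberg adjusted p = 0.00705). The Col9a3 call was lost without forelimb replicate 1, and the Col9a2 call was kept only without hindlimb replicate 1 among the fits that left out a library. Col2a1 lay just past the threshold and was not called (edgeR, Benjamini-Hochberg adjusted p = 0.0503), but was the third gene called when tags with at least 50 counts alone were tested. Over all tested tags, Col9a1, Col27a1, Col11a2 and Col11a1 had adjusted values of 0.158, 0.202, 0.230 and 0.367.

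The gene values were set beside a fit with a tag-sequence offset, an estimate per library of how the bases of a tag move its count. The offset was learned only from differences between tags of the same gene, over 42772 tags of 9906 genes, and without the tags of the 7 collagens. Its R2 for those differences was 0.368. With this offset edgeR called 0.146% of all genes, 0.0875% higher and 0.0583% lower, and 0 of the 7 collagens. Among single tags it called 0.0317%, and 0 of the 52 collagen tags. At an unadjusted p under 0.05, 0 of the 7 were higher and 1 was lower. The log2 fold changes with the offset were 0.25 for Col2a1, -0.19 for Col9a1, -0.33 for Col9a2, 0.30 for Col9a3, 0.20 for Col11a1, -0.67 for Col11a2 and 0.49 for Col27a1. Col9a2, Col9a3, Col11a1 and Col11a2 thus changed sign. With a lowess offset on the GC percent of each gene's tags, Col27a1 alone was called, at 1.40, where 3.08% of all genes were called higher and 2.62% lower. The difference that the tag-sequence offset gave each gene from its tags alone was 1.15 for Col2a1, 2.04 for Col9a2, 1.77 for Col11a2 and 0.90 for Col27a1, and -0.20 for Col9a1, -0.86 for Col9a3 and -0.73 for Col11a1. These values had the sign of the measured fold change in all 7 genes. The offset was learned from the same 4 libraries, and the share of all genes with equal signs is not given here. The match of signs is therefore a description and was not tested.

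Fits on tags of a single class of G and C number, added after seeing the data and each scaled within its class, narrowed the range of composition compared. Composition still varied within a class. The median log2 fold change of all tested tags was -0.12 at 8 and 0.92 at 10 G or C bases. It was 1.58 at 11 and 2.83 at 13. In tags of 0 to 7 G or C bases edgeR called 1.39% of all genes higher and 0.502% lower, and none of the 5 collagens with a value there in either direction. Col9a3 had -1.04 there and Col2a1 0.26. In tags of 8 to 10, where 6.49% of genes were called higher and 5.3% lower, Col2a1 (1.19), Col11a2 (1.21) and Col27a1 (1.82) were called higher and none lower. Col9a2 had -0.41 in this class. In tags of 11 to 17, where 11.3% of genes were called higher and 10.1% lower, Col9a2 (1.63) and Col9a3 (1.31) were called higher and Col11a1 (-1.85) and Col11a2 (-1.36) lower. These calls are relative to all tags of the class, which took a larger share of the counts in hindlimb than in forelimb. Scaled to whole libraries, the Col11a2 tags of this class had 32.2 and 43.9 CPM in hindlimb, against 28.8 and 32.1 CPM in forelimb. Those of Col11a1 had 15.1 and 22.2 CPM in hindlimb and 19.6 and 22.2 CPM in forelimb. This class held 1.77% of the counts of Col11a1 and 31.7% of those of Col11a2, against 70.7% for Col9a2. Read from the most abundant tag of each gene, where 13.7% of genes were called higher and 9.84% lower, Col9a3 was called lower (-1.76).

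Chains of the same collagen were compared within each library, where library size cancels. The ratio of Col9a2 to Col9a1 was 1.33 and 3.76 in hindlimb, against 0.449 and 0.595 in forelimb. The limb types did not overlap, and the difference of the log2 means was 2.12, with a p of 0.333 in an exact two-sided permutation test over the 4 libraries. This is the smallest p that 2 against 2 libraries allow, so none of the 8 ratios computed could pass 0.05, and the value was 0.533 after Benjamini-Hochberg adjustment over the 8. The ratio of Col9a3 to Col9a2 was 1.54 and 1.05 in hindlimb, against 8.25 and 4.53 in forelimb, a log2 difference of -2.27 (exact permutation p = 0.333). The ratio of Col9a3 to Col9a1 overlapped, at 2.05 and 3.96 in hindlimb and 3.70 and 2.69 in forelimb. As shares of the collagen IX counts, Col9a2 made up 30.4% and 43.1% in hindlimb, against 8.71% and 13.9% in forelimb, and Col9a3 made up 46.8% and 45.4% in hindlimb, against 71.9% and 62.8% in forelimb.

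The ratio of Col11a2 to Col11a1 was 0.141 and 0.158 in hindlimb, against 0.0501 and 0.0468 in forelimb (log2 difference 1.63; exact permutation p = 0.333). From all M21 tags it was 0.587 and 0.752 in hindlimb, against 0.347 and 0.436 in forelimb, so that the level of Col11a2 relative to Col11a1 depended on which tags were counted. The ratio of Col11a1 to Col2a1 was 0.510 and 0.275 in hindlimb, against 1.22 and 1.71 in forelimb (log2 difference -1.95; exact permutation p = 0.333). The ratio of Col27a1 to Col2a1 lay between 0.0704 and 0.0958 in all 4 libraries, and the limb types overlapped. With the tag-sequence offset, the ratio of Col9a2 to Col9a1 was 0.937 and 0.981 in hindlimb and 0.920 and 1.20 in forelimb. The 4 libraries then lay within a narrow range, and the log2 difference was -0.13. With the same offset the difference was 0.64 for Col9a3 to Col9a2, -0.87 for Col11a2 to Col11a1 and -0.07 for Col11a1 to Col2a1. Col9a3 to Col9a2 was then 2.85 and 2.75 in hindlimb, against 2.38 and 1.36 in forelimb, and Col11a2 to Col11a1 was 0.0698 and 0.0554 in hindlimb, against 0.121 and 0.107 in forelimb. Both still lay apart between the limb types, each in the direction opposite to that of the deposited counts. The ratio of Col9a1 to Col2a1 was 0.332 and 0.104 in hindlimb, against 0.593 and 0.728 in forelimb (log2 difference -1.82; exact permutation p = 0.333), and that of Col11a2 to Col2a1 overlapped between the limb types. With the offset Col9a1 to Col2a1 was 0.323 and 0.267 in hindlimb, against 0.352 and 0.467 in forelimb. It lay apart in the same direction as in the deposited counts. Col9a3 to Col9a1 and Col11a2 to Col2a1 overlapped in the deposited counts but lay apart with the offset. Col9a3 to Col9a1 was then higher and Col11a2 to Col2a1 lower in hindlimb.

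**Figure D4:**
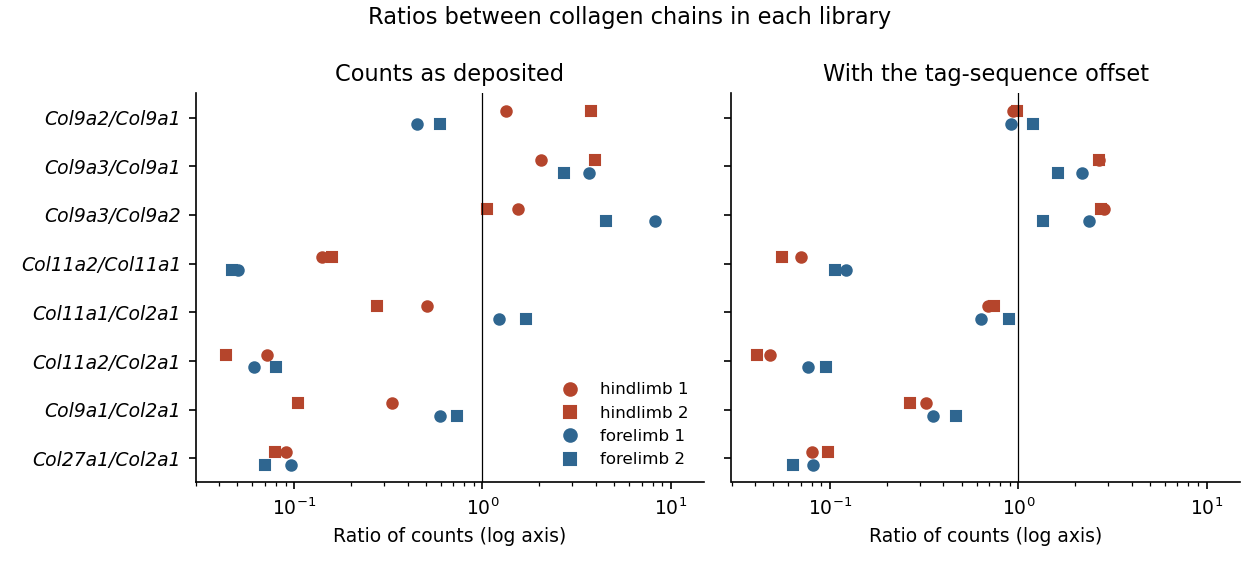
Ratios of counts between collagen chains in each of the 4 libraries, on a log axis, from counts as deposited (left panel) and with the tag-sequence offset (right panel); red points are hindlimb and blue points forelimb libraries, and the vertical line marks a ratio of 1. From deposited counts the limb types lie apart for Col9a2/Col9a1, Col9a3/Col9a2, Col11a2/Col11a1, Col11a1/Col2a1 and Col9a1/Col2a1. With the offset Col9a2/Col9a1 lies between 0.920 and 1.20 in all libraries. Col9a3/Col9a2 and Col11a2/Col11a1 still lie apart, each in the opposite direction, and Col9a1/Col2a1 still lies apart in the same direction. Col9a3/Col9a1 and Col11a2/Col2a1 lie apart with the offset alone.

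The genes most like Col2a1 over the 4 libraries were not matrix genes. Among 7331 genes with a mean of at least 20 CPM, likeness was the root mean square difference of log2 CPM after each gene was centred on its own mean. Tada3 (0.024), Nme1 (0.028), Kxd1 (0.044) and Rnf126 (0.046) were nearest. Of the other members, Col27a1 ranked 158, Col9a2 567 and Col11a2 762, while Col9a3, Col11a1 and Col9a1 ranked 4733, 4842 and 5143. The mean number of G or C bases in the tags was 10.2 for Col2a1 and 10.2, 9.57, 12.2 and 10.4 for the 4 nearest genes, in the order given. Over all tags of a gene it was 7.92 for Col27a1, 10.7 for Col9a2 and 9.71 for Col11a2. For Col9a3 it was 7.27, for Col11a1 5.63 and for Col9a1 5.31. Col27a1 was thus nearer to Col2a1 than Col9a2 was, with fewer G or C bases. The mean over all compared genes is not given here, and a link between likeness and composition was not tested.

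The list of chondrogenic regulators joins Sox9, Sox5 and Sox6 with other cartilage regulators and signalling genes such as Ihh and Fgfr3. Of 17 tested, edgeR called 0 higher and 0 lower, where 9.58% of all genes were called higher and 7.08% lower. DESeq2 also called 0 in either direction, and none had an unadjusted p under 0.05 in edgeR. The list had a median log2 fold change of 0.06 beside -0.03 over all tested genes. Sox9, the activator of Col2a1, had 159 and 160.1 CPM in hindlimb and 123 and 127 CPM in forelimb, a value of 0.35 (edgeR, Benjamini-Hochberg adjusted p = 0.457). Its partners had 0.90 (Sox5, edgeR, Benjamini-Hochberg adjusted p = 0.238) and 0.61 (Sox6, edgeR, Benjamini-Hochberg adjusted p = 0.407).

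Of 27 tested other cartilage matrix genes, 5 were called higher and 5 lower by edgeR, where 9.58% and 7.08% of all genes were, and the median was 0.09. Acan, the core protein of aggrecan, had 77.8 and 53.2 CPM in hindlimb and 58.8 and 64.9 CPM in forelimb and was not called (0.09; edgeR, Benjamini-Hochberg adjusted p = 0.890). Higher were Hspg2 (log2 fold change 1.87), which encodes perlecan, Col6a2 (1.46), a collagen VI chain, and Mia (1.96), a secreted cartilage protein, and lower was Matn2 (-1.42), a matrilin. Cnmd and Chad were also higher, and Col10a1, Epyc, Fmod and Matn1 also lower, named here after their values were seen. Col6a1, a partner chain of Col6a2 and the most abundant gene of the list, was not called (0.55). Of the named calls, Hspg2 alone remained with each library left out. Col6a2 was lost without forelimb replicate 1 (1.37) or forelimb replicate 2 (1.55), Mia without forelimb replicate 2 (1.77) and Matn2 without forelimb replicate 2 (-1.32).

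Of 20 tested genes that modify and fold procollagen, 2 were called higher and 2 lower by edgeR, near the 9.58% and 7.08% of all genes, with a median of 0.04. P4hb, the β subunit of prolyl 4-hydroxylase, had 729 and 1176 CPM in hindlimb, against 305 and 413 CPM in forelimb, and was higher (1.41; edgeR, Benjamini-Hochberg adjusted p = 0.00999). P4ha2, an α subunit of the same enzyme, had 34.0 and 20.4 CPM in hindlimb, against 78.9 and 163 CPM in forelimb, and was lower (-2.13; edgeR, Benjamini-Hochberg adjusted p = 0.00278). Plod3, a lysyl hydroxylase, was higher (1.15) and Fkbp14, a prolyl isomerase, lower (-1.62). Serpinh1, the collagen chaperone HSP47, had 1926 and 1846 CPM in hindlimb and 2344 and 1879 CPM in forelimb, and the limb types overlapped. All 4 calls were lost in at least 1 fit without a library: P4hb without forelimb replicate 1 (1.20), P4ha2 without forelimb replicate 2 (-1.54), Plod3 without forelimb replicate 1 (1.59), without forelimb replicate 2 (0.82) or without hindlimb replicate 2 (0.79), and Fkbp14 without forelimb replicate 2 (-0.90) or hindlimb replicate 2 (-1.03).

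For the next 2 lists, the share over all tested genes was again 9.58% higher and 7.08% lower in edgeR. Of 13 tested procollagen export genes, 1 was called higher and 1 lower, with a median of -0.09. These were Trip11 (1.96), a Golgi tether, and Sec23b (-1.36), a COPII coat protein. At an unadjusted p under 0.05 in edgeR, 2 of this list were higher and 4 lower. Trip11 was lost without forelimb replicate 1 (1.52), and Sec23b without forelimb replicate 1 (-1.35) or forelimb replicate 2 (-1.38). Of 11 tested cleavage and crosslinking genes, Bmp1, the procollagen C-proteinase, was called higher, with 106 and 239 CPM in hindlimb against 40.5 and 21.6 CPM in forelimb (2.44; edgeR, Benjamini-Hochberg adjusted p = 0.00162). None of that list was called lower by edgeR, where 1 had an unadjusted p under 0.05, and DESeq2 called 1 lower. The Bmp1 call remained without each of the 4 libraries, and the median of the list was -0.12. With the tag-sequence offset no gene of these 5 lists was called by edgeR.

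Markers of other limb tissues were counted in the same libraries, and their part in the collagen values was not tested. Of 12 skeletal muscle markers, 6 were called lower and none higher by edgeR, where 7.08% of all genes were called lower and 9.58% higher, with none higher at an unadjusted p under 0.05 or in DESeq2, and their summed level was 1455 and 1723 CPM in hindlimb, against 3785 and 3382 CPM in forelimb. Of 15 fibrous connective tissue and bone markers, 6 were lower and 1 higher, with sums of 15890.0 and 15987 CPM in hindlimb and 27477 and 20908 CPM in forelimb. Most of the gap between these sums lay in Col3a1, the most abundant of the list. It had 5517 and 5704 CPM in hindlimb, against 15761 and 9394 CPM in forelimb. With the tag-sequence offset its log2 fold change was 0.47 and was not called. Erythroid markers were called higher for 1 and lower for 1 of 7, with sums of 7391 and 8675 CPM in hindlimb and 12326 and 9810.0 CPM in forelimb. These sums were mostly 2 globins that lay in opposite directions. Hba-a2 had 2511 and 3009 CPM in hindlimb, against 454 and 382 CPM in forelimb. Hbb-bs had 4706 and 5519 CPM in hindlimb, against 11655 and 9257 CPM in forelimb. Epidermis markers were called higher for 2 and lower for 2 of 10, with sums of 2247 and 3069 CPM in hindlimb and 1744 and 1729 CPM in forelimb. Endothelium and macrophage markers were also called higher for 2 and lower for 2 of 10, with sums of 219 and 213 CPM in hindlimb and 252 and 214 CPM in forelimb, which overlapped. With the tag-sequence offset edgeR called 1 skeletal muscle marker and 1 fibrous connective tissue and bone marker lower, and no other gene of these 5 marker lists. Among the 9 cartilage markers 1 was called higher and 1 lower, Cnmd (log2 fold change 1.18) and Matn1 (-1.26).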

How the data were processed

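What the authors deposited was a single table of raw tag counts, whole numbers that sum to different totals in the 4 libraries. Bowtie and the build mm9 were used per the submitters' processing notes; for both, the version is not given in the sources used here. Of 733961 tags, each 17 bases long, 270911 were listed at 0 in every library. Tags were added up by Ensembl gene and, failing that, by UniGene cluster. Those without either made up 14.8% to 18.7% of a library's counts and were left out. Symbols and positions are from GENCODE M21 on GRCm38. Among counts of tags that matched 1 M21 gene, 98.0% had the same gene in the table.

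The limb types were compared in R 4.3.3 with edgeR 4.0.16 (glmQLFit, glmQLFTest, TMM, filterByExpr, Benjamini-Hochberg at 0.05, no block). Alternatives were DESeq2 1.42.0 with its size factors, library totals without TMM, no filter, a replicate block, each library left out, lowess and tag-sequence offsets, the most abundant tag, last-site tags and tags of a single M21 gene. Fits on all M21 tags, on 3 classes of G and C number and with a crossed block were added after seeing the data. Tag usage with the offset was not run, since diffSpliceDGE takes 1 offset per library. Likeness used log2 CPM with a pseudocount of 0.5. The fits were tested on simulated data.

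Members and gene lists were chosen with earlier results of these data known. Named were the 7 members, their tags with at least 5% of the gene's counts, Sox9, Sox5, Sox6, Acan, the 4 genes nearest to Col2a1, and of each list up to 4 called members with the smallest p and the most abundant member. For the marker lists, counts and sums are given, with the levels of Col3a1, Hba-a2 and Hbb-bs, which weigh heavily in the sums. Pth1r, Sec13 and Lox, which the rule names as most abundant, are not described. Same-numbered libraries did not deviate together (correlation of deviations -0.10), and the labels do not say that numbers pair animals. Tags are PCR products without molecular identifiers.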

Additional observations from a re-analysis of the deposited data

Results flagged for a closer look

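Counts outside the assigned tags were found for each of the 7 genes, in tags that the table gave no gene but that matched 1 of their M21 transcripts. On the sense strand there were 5233 such counts for Col11a2, 1356 for Col2a1, 845 for Col9a2, 260 for Col11a1 and 95 for Col27a1, and 0 for Col9a1 and Col9a3. On the antisense strand there were 318 counts for Col9a3, 192 for Col11a1, 123 for Col27a1, 85 for Col11a2, 68 for Col9a2, 55 for Col9a1 and 42 for Col2a1. All are sums over the 4 libraries, and whether the antisense counts are background was not tested. For Col11a2 alone they exceeded the 1528 counts of the assigned tags. Tags that matched the antisense strand alone were also among the assigned tags and are not in these sums. Col9a1 tag 5 was one, with 92 and 94 counts in hindlimb and 190 and 63 in forelimb. Another was Col2a1 tag 5, with 63 and 131 counts in hindlimb and 108 and 54 in forelimb.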

How the results depend on the processing

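The fold changes of the 7 collagens kept their direction under DESeq2, without TMM, without the filter and with the replicate block, and the same number, 4, was called higher in each. The fits below changed a result, and the cause was not tested unless stated. Leaving out a library gave 1 to 4 collagens called higher, 583 to 1899 of all genes higher and 367 to 2001 lower, with values of 1.004 to 1.80 for Col2a1, -0.84 to 0.037 for Col9a1, 1.03 to 1.16 for Col11a2, 1.02 to 1.97 for Col27a1, -0.23 to 0.35 for Acan and -0.32 to 0.0075 for Serpinh1. It gave 4 to 13 collagen tags higher, 1 to 3 lower and 0 to 3 genes with differing tag usage. With the lowess offset 423 genes were higher and 360 lower, and 1 collagen was called; values were 0.45 for Col2a1, 0.40 for Col9a1, 0.51 for Col9a2, 0.23 for Col11a1, 0.33 for Col11a2, -0.33 for Sox5, 0.12 for Serpinh1, -0.59 for Acan and -0.32 for Col6a1. With the tag-sequence offset 12 genes were higher and 8 lower, 0 collagens and 0 collagen tags were called in either direction, and values were 0.25 for Col2a1, -0.33 for Col9a2, 0.30 for Col9a3, 0.20 for Col11a1, -0.67 for Col11a2, 0.49 for Col27a1, -0.15 for P4hb, 0.22 for Serpinh1, -0.62 for Acan, -0.23 for Col6a1, -0.22 for Hspg2, 0.011 for Matn2 and 0.092 for Sec23b. The log2 ratio differences were then -0.13 (Col9a2/Col9a1), 0.64 (Col9a3/Col9a2), -0.87 (Col11a2/Col11a1), -0.073 (Col11a1/Col2a1), -0.94 (Col11a2/Col2a1) and -0.47 (Col9a1/Col2a1). Read from its most abundant tag, Col9a3 was called lower (-1.76), 1 collagen lower beside 4 higher, and differences were 3.88 (Col9a2/Col9a1), -1.16 (Col9a3/Col9a1), -5.04 (Col9a3/Col9a2), 1.75 (Col11a2/Col11a1) and 0.87 (Col27a1/Col2a1).

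From all M21 tags Col11a2 was 0.29, and differences were 0.77 (Col11a2/Col11a1) and -1.21 (Col11a2/Col2a1), where nearly all added counts were in its 3′ UTR tags. With the offset on these tags 34 genes were higher and 14 lower, 0 collagens were called, and values were 0.26 for Col2a1, -0.39 for Col9a2, 0.31 for Col9a3, 0.23 for Col11a1, -0.77 for Col11a2 and 0.51 for Col27a1, with differences of -0.23 (Col9a2/Col9a1), 0.71 (Col9a3/Col9a2), -0.99 (Col11a2/Col11a1), -0.056 (Col11a1/Col2a1), -1.05 (Col11a2/Col2a1) and -0.44 (Col9a1/Col2a1). Tags of 0 to 7 G or C bases alone, each class scaled on its own, gave 125 genes higher and 45 lower, 0 collagens higher, and 0.26 for Col2a1, 0.25 for Col9a1, 0.21 for Col11a1 and 0.58 for Col27a1. Tags of 8 to 10 gave 605 higher and 494 lower, and -0.41 for Col9a2. Tags of 11 to 17 gave 447 higher and 400 lower, 2 collagens higher (Col9a2, Col9a3) and 2 lower (Col11a1, Col11a2), and -0.39 for Col2a1, 1.31 for Col9a3, -1.85 for Col11a1, -1.36 for Col11a2 and -0.31 for Col27a1. Tags with at least 50 counts gave 11 member tags higher and 2 lower, and Col2a1 was then called for tag usage. The share of all such tags called is not given here, so these member counts have no background beside them. The replicate block gave 2 tags higher, 0 lower and 1 gene with differing tag usage, with 1179 genes higher and 969 lower; it changed no collagen gene call, but ended the tag usage call of Col9a2 and the calls of Col9a2 tag 4, Col9a3 tags 1, 4 and 5 and Col27a1 tag 1. A crossed pairing, added because the correlation of deviations was -0.10, gave 1684 genes higher and 1486 lower. Col11a1 had no value from last-site tags alone. Depth limits Col27a1 and Col11a2 most, with 88 and 100 counts in forelimb replicate 2.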
